A study of Homo sapiens with 8 samples.

Results

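The genes described are 37 NF-kB factors, their inhibitors, NF-kB target genes and inflammatory cytokines, taken by symbol from a list out of 18787 gene symbols in the deposited expression table. The list holds 5 NF-kB subunits, 6 inhibitors and feedback regulators, 8 receptors and adaptors, 5 effectors induced by tumour necrosis factor (TNF), 2 adhesion molecules, 5 chemokines and 6 cytokines and growth factors. Of the 37, 33 reached a normalised value of 10 in at least 2 libraries and were tested among 14282 genes. The other 4 were the chemokines CCL5 and CCL7 and the cytokines TNF and LTB.

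Bulk RNA sequencing was made of 2 established human glioblastoma lines, T98 and U87, grown in DMEM with fetal bovine serum. In each line, siRNA knockdown of the kinase LKB1 (gene STK11) was compared with a control siRNA, and total RNA was taken 72 h after lipid transfection. The 4 groups were T98 with LKB1 siRNA, T98 with control siRNA, U87 with LKB1 siRNA and U87 with control siRNA, with 2 libraries each. Every group carried an siRNA and the transfection reagent, so no untreated cells enter any comparison. The labels say only that samples were duplicated, so p-values measure the spread between these libraries, which may be technical. The number of siRNAs used against LKB1 is not given in the sources used here, and an effect of LKB1 loss and an off-target effect of the siRNA cannot be told apart.

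NF-kB is a family of dimeric transcription factors that inhibitor proteins (the IkB proteins) hold in the cytoplasm until a signal, such as TNF, interleukin-1 or a microbial product, leads the IKK kinases to mark the inhibitors for destruction. The freed dimers bind kB sites in DNA and switch on cytokines, chemokines, adhesion molecules and survival genes, and also their own inhibitors, which closes a negative feedback loop. In glioblastoma, NF-kB activity is known for its link to a mesenchymal expression state. Transcript levels of these genes do not measure NF-kB activity itself.

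The siRNA target was lower in every LKB1 siRNA library. STK11 (NM_000455, chromosome 19) had 339.9 and 588 normalised reads in T98 LKB1 siRNA libraries against 1999 and 2041 in T98 control libraries, and 361 and 385 in U87 LKB1 siRNA libraries against 2445 and 2041 in U87 control libraries. Sequencing lane, named in the table's column headers, set libraries apart: in each group 1 library was run in lane 2 and the other in lane 4 (T98) or lane 5 (U87). Across the 14282 genes, the difference between lanes correlated between the siRNA groups of a line at 0.717 in T98 and 0.809 in U87, against 0.124 to 0.177 between lines. Lane and a separate culture or preparation cannot be told apart. Values are therefore given in the order lane 2, then lane 4 or 5, and each count of genes called is given with and without a lane term in the model. The SE and adjusted p beside a single knockdown difference are from the fit with the lane term, which leaves the difference itself the same, unless stated otherwise. Library totals were 25234334 to 38031734 reads. Of the markers of the labelled cells, VIM, CD44 and TGFBI were high in all 8 libraries, while GFAP lay at 1.85 to 50.7 and S100B and SOX2 at 3.5 or less. NES lay at 16.2 to 123 in T98 and 1361 to 2073 in U87 libraries, and CHI3L1 at 11.1 to 36.1 in T98 and 1618 to 6404.5 in U87. OLIG2 lay at 25.5 to 70.4 and SOX10 at 3.18 to 6.82 over all 8. Of the markers of immune cells, which can also express many of the NF-kB genes, PTPRC did not pass 9.6 and AIF1 did not pass 1.9, while CD68 lay at 538 to 22934 and CSF1R at 7.53 to 812.53.

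The kB consensus, a pattern of 10 bases, was searched for on both strands of the 300 bases around RefSeq transcription starts (250 before to 50 after, GRCh38.p14). Of the 29 listed genes with a window in the table, 15 (51.7%) held a match, against 7.09% of all 27305 genes with a window. Many of the genes were listed as known NF-kB targets, so this is a description of the list. The following stretches are shown because these 7 genes were lower with LKB1 siRNA in T98 and held a match. Capitals mark the matches, and the flanks are 20 bases.
TNFAIP3, chr6:137867172-137867233, plus strand: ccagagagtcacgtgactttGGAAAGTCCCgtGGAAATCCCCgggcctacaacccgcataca
BIRC3, chr11:102317265-102317378, plus strand: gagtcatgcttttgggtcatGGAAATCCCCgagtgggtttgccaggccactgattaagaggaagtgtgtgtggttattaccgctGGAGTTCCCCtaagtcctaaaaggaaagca
UBD, chr6:29559756-29559805, minus strand: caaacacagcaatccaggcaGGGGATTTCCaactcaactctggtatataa
CCL20, chr2:227813743-227813792, plus strand: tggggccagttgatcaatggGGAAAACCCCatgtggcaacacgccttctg
REL, chr2:60881507-60881557, plus strand: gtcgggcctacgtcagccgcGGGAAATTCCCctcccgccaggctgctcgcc
NFKB2, chr10:102394451-102394529, plus strand: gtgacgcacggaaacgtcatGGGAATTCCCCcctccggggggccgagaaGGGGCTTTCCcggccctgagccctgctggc
NFKBIZ, chr3:101827747-101827796, plus strand: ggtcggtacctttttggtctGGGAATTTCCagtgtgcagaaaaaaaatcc
The same motif stood in promoters of genes that did not pass the knockdown test in either line, of which an inhibitor and an adhesion molecule are shown.
NFKBIA, chr14:35404801-35404850, minus strand: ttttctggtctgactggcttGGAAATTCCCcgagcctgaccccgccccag
VCAM1, chr1:100719660-100719709, plus strand: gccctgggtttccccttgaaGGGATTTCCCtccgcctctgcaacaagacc
A match in capitals is not a measured binding site. The TNFAIP3 stretch held 2 matches, starting 67 and 55 bases before the annotated start. BIRC3 held 2, at 199 and 135 bases, UBD held 1 at 53 bases and CCL20 1 at 79 bases. TNFAIP2, TRAF1, ICAM1 and CSF2 also passed the T98 knockdown test, and their windows held no match.

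In T98 cells the NF-kB genes were mostly lower with LKB1 siRNA. With a lane term, 13 of the 33 tested genes passed an adjusted p of 0.05, against 15.8% of all genes tested, and without it 0 passed, against 0.028% of all genes (7 of the 33 and 10.5% of all genes had an unadjusted p under 0.05 without it). Of the 13, 11 were lower, against 7.33% of all genes, and 2 were higher, against 8.48%. The lower genes were the subunits REL, RELB and NFKB2, the feedback regulators TNFAIP3 and NFKBIZ, the adaptors TRAF1 and BIRC3, the effectors TNFAIP2 and UBD, the adhesion molecule ICAM1 and the chemokine CCL20. CCL20 lay at 6.38 or less in every T98 library and entered the test only through its U87 values. It is kept in this count and in those that follow. The higher genes were the chemokine CX3CL1 and the growth factor CSF2. Of the markers of other cell types, the macrophage marker CD68 was lower in the same fit (−0.63, adjusted p = 0.0287) and the endothelial marker CDH5 higher (1.86, adjusted p = 0.0372), from at most 10.3 normalised reads. The summed level of the 7 microglia and macrophage markers was 635 to 756 in T98 LKB1 siRNA libraries and 833 to 1313 in T98 control libraries, and that of the 4 endothelial markers 51.5 to 57.8 in T98 LKB1 siRNA libraries and 27.9 to 49.5 in T98 control libraries. Most of the macrophage sum was CD68, at 538 and 614 with LKB1 siRNA and 708 and 1125 with control siRNA. ITGAM was also lower in both lanes (−0.828 and −0.726). CSF1R (0.799 and 0.691) and CD14 (0.972 and 0.215) were higher in both. Of the tested endothelial markers, PECAM1 was lower in both lanes (−1.004 and −0.886, at most 9.57 normalised reads). VWF stood at 0.76 and −0.031. None of ITGAM, CSF1R, CD14, PECAM1 and VWF passed the test. AIF1 was at 1.9 or less in these T98 libraries, and the part of these markers in the result was not tested. The median log2 fold change of the 33 genes was −0.35, against 0.02 for all genes, and 21 of the 33 were negative in both lanes, against 34.6% of all genes, while 5 were positive in both, against 38.2%. A difference of 0.5 or more on the log2 scale in both lanes was seen downwards in 10 genes, against 6.46% of all genes, and upwards in 2, against 9.54%. The values of the siRNA groups did not overlap for 8 lower genes, against 20.5% of all genes, and for 2 higher ones, against the same 20.5%. In bulk RNA, fewer cells expressing a gene and less of its RNA per cell cannot be told apart. Fold changes are differences of log2(normalised value + 1), which understates the change of low genes, and all adjusted p-values are from limma over the 14282 genes.

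Without the lane term the adjusted p-values of the 13 genes ran from 0.244 for TNFAIP2 to 0.897 for ICAM1. With it, all 13 calls were lost when either T98 library of lane 2 or any U87 library was left out. In the same fits, calls over all genes were lost or fell too. With a lane 4 library left out, slightly fewer NF-kB genes were called, while calls over all genes rose.

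**Figure D1:**
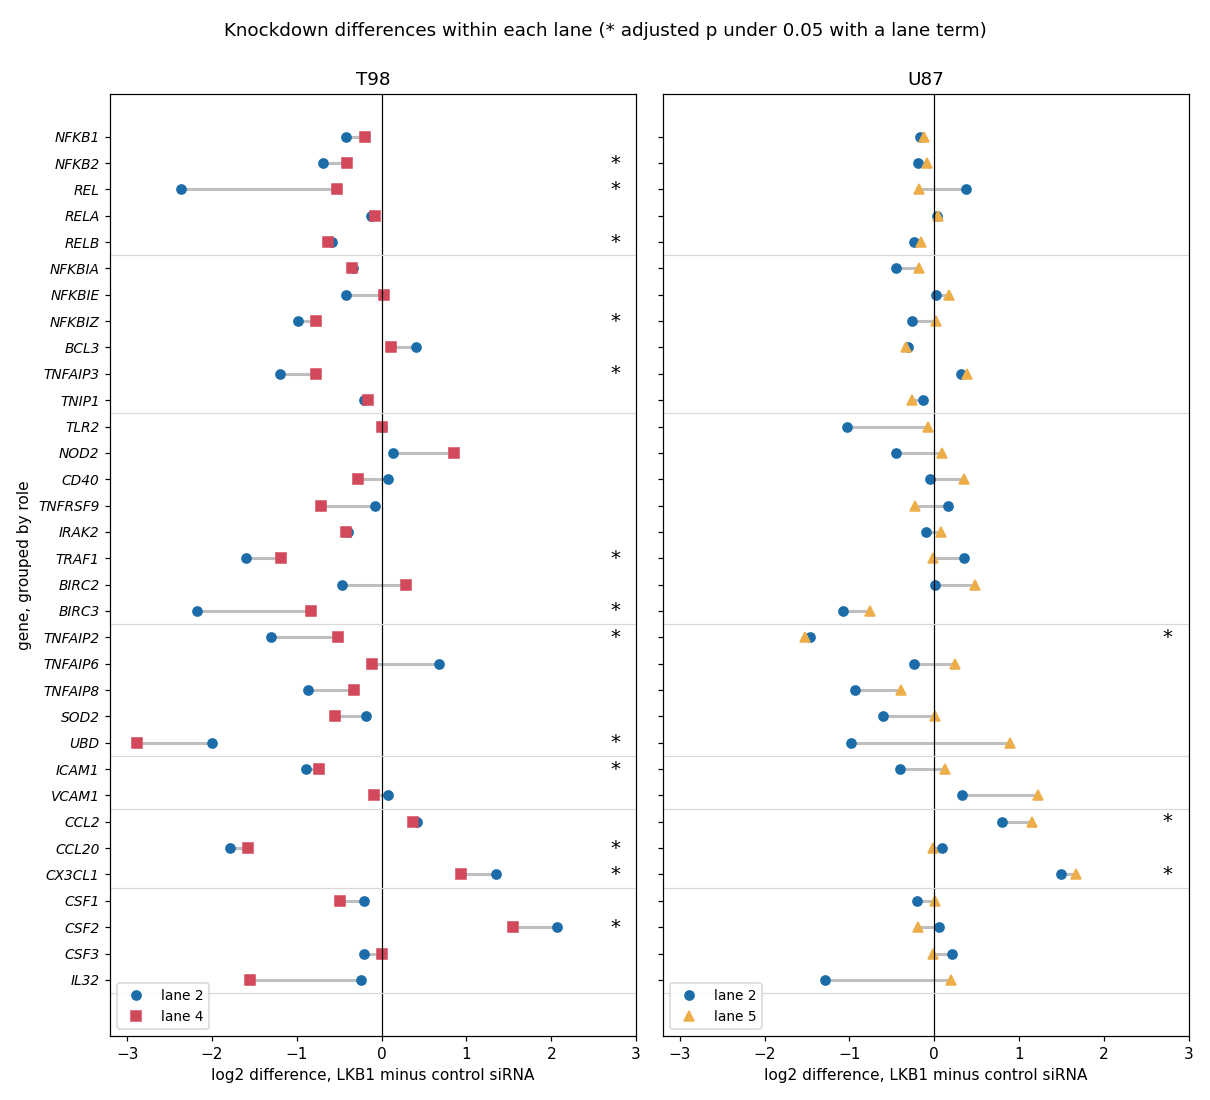
Log2 difference, LKB1 minus control siRNA, of the 33 tested NF-kB genes within each sequencing lane, T98 on the left and U87 on the right, with genes grouped by role down the page and a star where the adjusted p with a lane term was under 0.05. In T98, 21 genes lie left of 0 in both lanes and 5 lie right of it in both, while in U87 10 lie left and 7 right.

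Among the subunits, the proteins that make up the NF-kB dimers, 3 of 5 passed as lower in T98 with a lane term, against 7.33% of all genes. REL (hg19 chr2:61108752-61150178), which encodes c-Rel, had 51.7 and 134 normalised reads in T98 LKB1 siRNA libraries, against 271 and 195 in T98 control libraries. Its log2 fold change was −1.45 ± 0.40 (SE, adjusted p = 0.0493), and the lane 2 difference of −2.37 was far larger than the lane 4 difference of −0.53. RELB, the partner of p52 in the non-canonical pathway, had 502 and 308 in T98 LKB1 siRNA libraries against 754 and 478 in T98 control libraries. The lower control library fell below the higher LKB1 siRNA library, but the difference was alike within lanes, at −0.58 and −0.63 (log2 fold change −0.61 ± 0.14, adjusted p = 0.0325). NFKB2, which encodes p100 and p52, had 1346 and 904 in T98 LKB1 siRNA libraries and 2172 and 1205 in T98 control libraries (−0.55 ± 0.13, adjusted p = 0.0329). NFKB1, the gene of p105 and p50, had 2071 and 1674 in T98 LKB1 siRNA libraries and 2764 and 1919.6 in T98 control libraries, and did not pass the test (−0.31 ± 0.12, adjusted p = 0.126). RELA, which encodes p65, differed least, with 2909.7 and 2683 in T98 LKB1 siRNA libraries and 3169 and 2834 in T98 control libraries (−0.10 ± 0.11, adjusted p = 0.564).

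Of the inhibitors and feedback regulators, 2 of 6 passed as lower in T98 with a lane term, against 7.33% of all genes. TNFAIP3 (hg19 chr6:138188325-138204451), which encodes the ubiquitin-editing enzyme A20, had 299.6 and 226 in T98 LKB1 siRNA libraries, against 692 and 386 in T98 control libraries, so the groups did not overlap (−0.99 ± 0.16, adjusted p = 0.0109). NFKBIZ, which encodes the nuclear regulator IkB-zeta, had 163 and 184 in T98 LKB1 siRNA libraries and 324 and 315 in T98 control libraries, and both pairs were close to each other (−0.88 ± 0.15, adjusted p = 0.0135). NFKBIA, which encodes IkB-alpha, the inhibitor that traps NF-kB in the cytoplasm, had 1533 and 1183 in T98 LKB1 siRNA libraries and 1940.0 and 1505 in T98 control libraries. It was lower by nearly the same amount within each lane, −0.34 in lane 2 and −0.35 in lane 4, and did not pass the test (adjusted p = 0.102). NFKBIE, another cytoplasmic inhibitor, and TNIP1, a partner of A20, had log2 fold changes of −0.20 and −0.19. BCL3, a nuclear IkB protein that can act as a coactivator, had 1947 and 1564 in T98 LKB1 siRNA libraries and 1468 and 1447 in T98 control libraries, with no overlap and no call (0.26 ± 0.13, adjusted p = 0.201).

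Of the receptors and adaptors, 2 of 8 passed as lower in T98 with a lane term, against 7.33% of all genes. TRAF1 (hg19 chr9:123664671-123691451), an adaptor of TNF receptors, had 278 and 84.5 in T98 LKB1 siRNA libraries, against 842 and 194 in T98 control libraries. Its libraries differed more between lanes than between siRNAs, with lane 4 below lane 2 by 1.70 under LKB1 siRNA and by 2.11 under control siRNA on the log2 scale. Within lanes the siRNA difference was −1.60 and −1.19 (−1.39 ± 0.18, adjusted p = 0.00681). BIRC3 (hg19 chr11:102188181-102210135), which encodes the ubiquitin ligase cIAP2, had 1782 and 903 in T98 LKB1 siRNA libraries and 8049.9 and 1608 in T98 control libraries. The lane 2 control library alone stood at 8049.9, and the difference was −2.17 in lane 2 and −0.83 in lane 4 (−1.50 ± 0.28, adjusted p = 0.0167). Its close relative BIRC2, the gene of cIAP1, went opposite ways in the lanes, with 4373 and 5519.8 in T98 LKB1 siRNA libraries and 6063 and 4516 in T98 control libraries. IRAK2, a kinase-like adaptor of interleukin-1 and Toll-like receptors, had 596 and 503 in T98 LKB1 siRNA libraries and 785 and 675 in T98 control libraries (−0.41 ± 0.13, adjusted p = 0.0667). TNFRSF9, the receptor 4-1BB, had 569 and 152 in T98 LKB1 siRNA libraries and 599 and 249 in T98 control libraries. In T98 the receptors CD40, NOD2 and TLR2 lay at or below 21.6 in every library, and TLR2 was at 0 in all 4.

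Of the effectors induced by TNF, 2 of 5 passed as lower in T98 with a lane term, against 7.33% of all genes. UBD (hg19 chr6:29523389-29527702), which encodes the ubiquitin-like protein FAT10, had 29.3 and 8.24 in T98 LKB1 siRNA libraries and 120.3 and 67.3 in T98 control libraries, so the groups did not overlap (−2.44 ± 0.58, adjusted p = 0.0322). These values rest on few reads, 26 and 9 in T98 LKB1 siRNA libraries and 113 and 71 in T98 control libraries. TNFAIP2 (hg19 chr14:103592664-103603776), a cytoskeletal protein also called M-Sec, had 1227 and 1801 in T98 LKB1 siRNA libraries and 3039 and 2578 in T98 control libraries (−0.91 ± 0.19, adjusted p = 0.021). TNFAIP8, a regulator of cell death, had 246 and 308 in T98 LKB1 siRNA libraries and 449.8 and 385 in T98 control libraries, with no overlap and no call (−0.59 ± 0.21, adjusted p = 0.0893). SOD2, the mitochondrial superoxide dismutase, had 2555 and 1622 in T98 LKB1 siRNA libraries and 2914 and 2379 in T98 control libraries (−0.37 ± 0.17, adjusted p = 0.169). TNFAIP6, the secreted protein TSG-6, lay at or below 15.3 in every T98 library.

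Adhesion molecules, chemokines and cytokines did not move together in T98. ICAM1, a ligand of leukocyte integrins, had 55.1 and 168 in T98 LKB1 siRNA libraries and 104 and 281 in T98 control libraries (−0.82 ± 0.19, adjusted p = 0.0298). VCAM1, the other adhesion molecule, had 1155 and 2677 in T98 LKB1 siRNA libraries and 1099 and 2857 in T98 control libraries, with a log2 fold change of −0.01 ± 0.27. For both genes the lane 4 libraries were the higher ones under either siRNA. CCL20, a chemokine that draws lymphocytes and dendritic cells, passed the test (−1.68 ± 0.35, adjusted p = 0.0229) on 1 and 1 reads in T98 LKB1 siRNA libraries against 6 and 5 in T98 control libraries. The control group's CCL20 reads were 5.41 times those of the LKB1 siRNA group after scaling, with an exact 95% interval of 1.18 to 50.2 that covers counting error only.

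CX3CL1 (hg19 chr16:57406414-57418956), the membrane-anchored chemokine fractalkine, rose in T98, with 417 and 1431 in LKB1 siRNA libraries against 163 and 746 in control libraries (1.14 ± 0.25, adjusted p = 0.0243). It rose within each lane, by 1.34 and 0.94, although the lane 4 control library stood above the lane 2 LKB1 siRNA library. CSF2 (hg19 chr5:131409485-131411863), which encodes GM-CSF, a growth factor of granulocytes and macrophages, had 56.6 and 18.5 in T98 LKB1 siRNA libraries and 12.7 and 5.64 in T98 control libraries (1.81 ± 0.27, adjusted p = 0.00919), from 50 and 20 reads against 12 and 6. CCL2, a chemokine of monocytes, had 1419 and 1028 in T98 LKB1 siRNA libraries and 1062 and 794 in T98 control libraries, and was higher by 0.42 and 0.37 within lanes without passing the test (adjusted p = 0.118). CSF1, the growth factor of macrophages and microglia, had 23961 and 13972 in T98 LKB1 siRNA libraries and 27632 and 19722 in T98 control libraries (−0.35 ± 0.13, adjusted p = 0.103). IL32, a proinflammatory cytokine, had 291 and 31.4 in T98 LKB1 siRNA libraries and 344 and 93.8 in T98 control libraries (−0.90 ± 0.44, adjusted p = 0.188). CSF3, which encodes G-CSF, was at 5.25 or less in every T98 library.

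**Figure D2:**
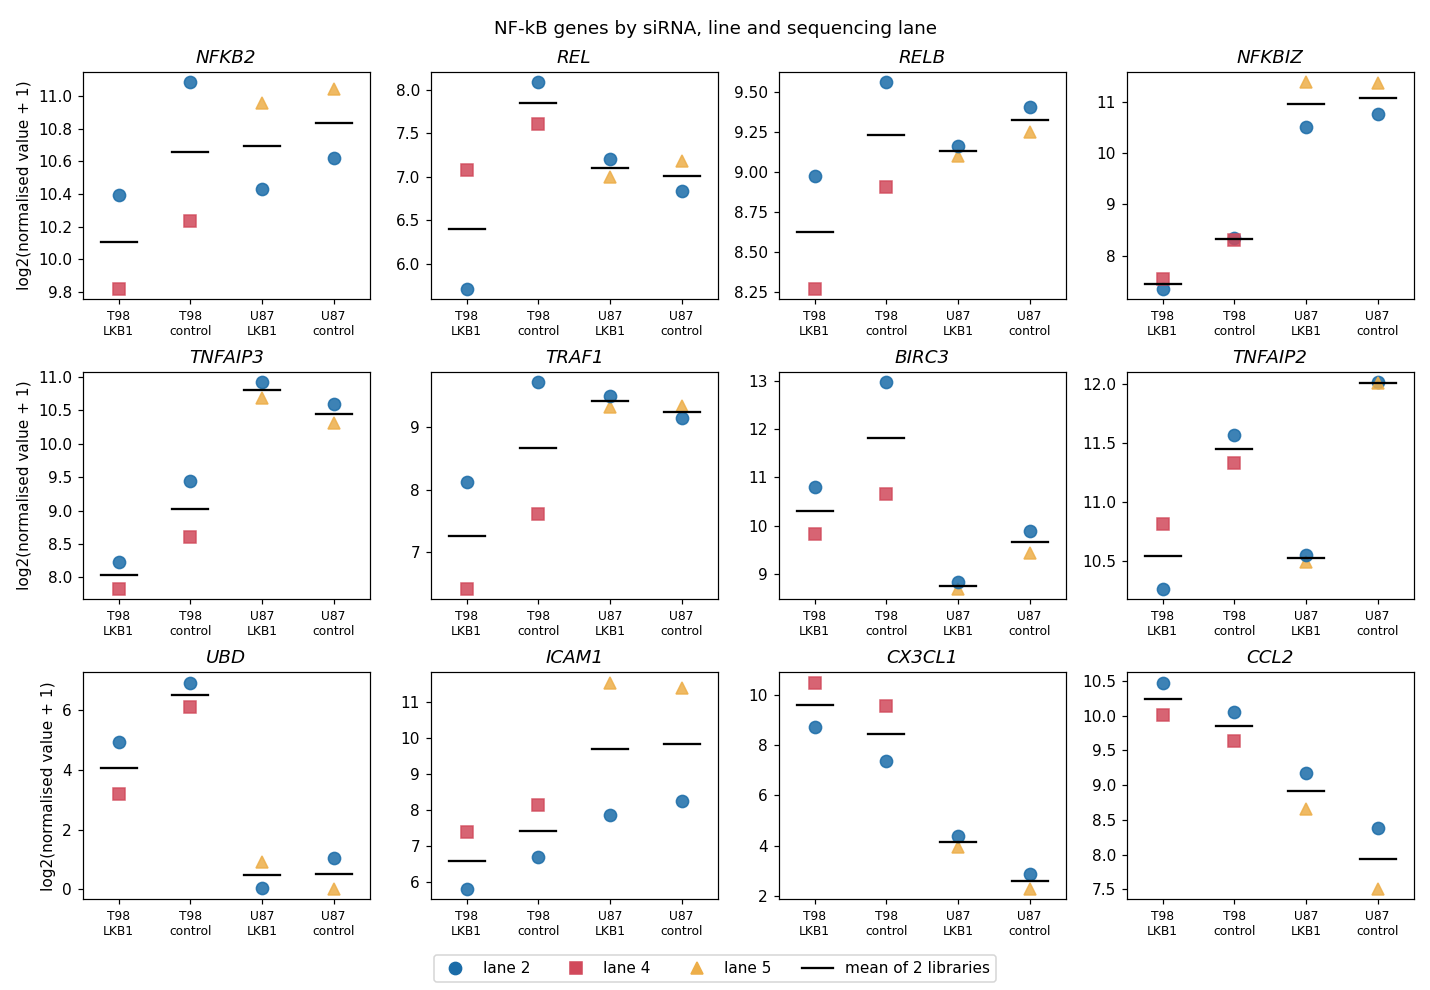
Log2(normalised value + 1) of 12 NF-kB genes in each library, LKB1 siRNA left of control siRNA in each line, with the symbol showing the lane and a bar the mean of the 2 libraries. REL, NFKBIZ, TNFAIP3, TNFAIP2 and UBD are lower with LKB1 siRNA without overlap in T98, as are 20.5% of all genes. In U87 RELB, BIRC3 and TNFAIP2 are lower without overlap, as are 20.2% of all genes. TNFAIP3, CX3CL1 and CCL2 are higher without overlap in U87, as are 17.6%. ICAM1 in U87 separates by lane and not by siRNA.

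In U87 cells the share of NF-kB genes called was no larger than that of all genes. The effector TNFAIP2 was lower with LKB1 siRNA and the chemokines CX3CL1 and CCL2 were higher. With a lane term 3 of the 33 genes passed, against 11.2% of all genes, and without it 0 passed, against 0.056% (3 of the 33 and 8.88% of all genes had an unadjusted p under 0.05 without it). TNFAIP2 fell, against 5.91% of all genes lower, and CX3CL1 and CCL2 rose, against 5.29% higher. The median log2 fold change of the 33 was −0.07, against −0.002 for all genes, and 10 were negative in both lanes, against 37.5% of all genes, while 7 were positive in both, against 35.5%. A difference of 0.5 or more in both lanes was seen downwards in TNFAIP2 and BIRC3, against 8.08% of all genes, and upwards in CX3CL1 and CCL2, against 7.74%. The siRNA groups did not overlap for 5 lower genes, against 20.2% of all genes, and for 4 higher ones, against 17.6%. Without the lane term the adjusted p-values of the 3 were 0.071 for TNFAIP2, 0.458 for CCL2 and 0.716 for CX3CL1. With it, all 3 calls were lost when any U87 library was left out, as were the calls over all genes. When a T98 library was left out, calls rose among the NF-kB genes and over all genes alike.

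TNFAIP2 had 1501 and 1439 in U87 LKB1 siRNA libraries, against 4136 and 4127 in U87 control libraries. The 2 libraries of each group lay close together and the groups far apart (−1.49 ± 0.19, adjusted p = 0.00396 with a lane term and 0.071 without). CCL2 had 578 and 404 in U87 LKB1 siRNA libraries and 332 and 180.3 in U87 control libraries, with no overlap (0.98 ± 0.16, adjusted p = 0.00897). CX3CL1 was low in U87, at 19.7 and 14.3 in LKB1 siRNA libraries and 6.31 and 3.8 in control libraries, from 15 and 17 reads against 6 and 4 (1.59 ± 0.25, adjusted p = 0.00813). BIRC3 had 451 and 411 in U87 LKB1 siRNA libraries and 950.1 and 693 in U87 control libraries, with no overlap (−0.91 ± 0.28, adjusted p = 0.0822). TNFAIP8 had 371 and 381 in U87 LKB1 siRNA libraries and 713 and 500.2 in U87 control libraries, with no overlap (−0.67 ± 0.21, adjusted p = 0.0857).

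The subunits and inhibitors differed little in U87. NFKB1 had 1779 and 1587 in U87 LKB1 siRNA libraries and 1997 and 1731 in U87 control libraries, and NFKB2 had 1378 and 1990.3 against 1573 and 2112. RELA had 2837 and 3285 in U87 LKB1 siRNA libraries and 2769 and 3172 in U87 control libraries, RELB had 571 and 547 against 676 and 607, and REL had 147 and 127 against 113 and 144. The 5 log2 fold changes lay between −0.20 and 0.10. NFKBIA had 2855 and 2165 in U87 LKB1 siRNA libraries and 3911 and 2449.5 in U87 control libraries (−0.32 ± 0.13, adjusted p = 0.157). TNFAIP3 had 1934 and 1655 in U87 LKB1 siRNA libraries and 1548 and 1268 in U87 control libraries, higher in both lanes without passing the test (0.35 ± 0.16, adjusted p = 0.193), and TRAF1 had 724 and 643 against 565 and 649. NFKBIZ had 1458 and 2661 in U87 LKB1 siRNA libraries and 1742 and 2630.1 in U87 control libraries. ICAM1 had 231 and 2983 in U87 LKB1 siRNA libraries and 306 and 2720.0 in U87 control libraries, so lane 5 stood above lane 2 by 3.69 and 3.15 on the log2 scale. CSF2, with 135 and 284 in U87 LKB1 siRNA libraries and 129 and 326 in U87 control libraries, and CSF3, with 4329 and 14226 against 3739.7 and 14329, were likewise set apart by lane and had log2 fold changes of −0.07 and 0.10.

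The test of the difference between the lines, the knockdown effect in T98 minus that in U87, called 0 of the 33 genes with or without a lane term, against 0.476% and 0% of all genes. With a lane term 10 of the 33 had an unadjusted p under 0.05, against 14.8% of all genes, and without it 1 had, against 2.57%. The genes nearest to a call were TNFAIP3 (−1.34 ± 0.22, adjusted p = 0.0616), TRAF1 (−1.57 ± 0.26, adjusted p = 0.0616) and CSF2 (1.88 ± 0.38, adjusted p = 0.0878). Both lane differences of T98 lay on one side of 0 and both of U87 on the other for 3 of the 33, BCL3, RELA and TNFAIP3, against 11.5% of all genes. TNFAIP3 was lower in both T98 lanes, by 1.20 and 0.77, and higher in both U87 lanes, by 0.32 and 0.38. With the lane term and either T98 library of lane 4 left out, the T98 effect rests on the lane 2 pair alone. The difference was then −2.47 for REL, −1.77 for TRAF1 and −1.56 for TNFAIP3. With either T98 library of lane 2 left out, it was −0.63, −1.36 and −1.12.

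Averaged over the lines, TNFAIP2 was the only NF-kB gene to pass without a lane term, against 1.86% of all genes and 0.854% in the same direction (−1.20 ± 0.16, adjusted p = 0.021). It was lower in all 4 lane comparisons, with differences of −1.31 and −0.52 in T98 and of −1.46 and −1.52 in U87. Leaving out 1 library at a time kept it past the threshold only without the T98 LKB1 siRNA library of lane 4 (adjusted p = 0.0309) and gave adjusted p-values of 0.0538 to 0.109 otherwise. With a lane term 13 of the 33 passed, against 26.4% of all genes, 10 lower and 3 higher. BIRC3 (−1.21 ± 0.20, adjusted p = 0.00543), TNFAIP8 (−0.63 ± 0.15, adjusted p = 0.0191) and NFKBIA (−0.33 ± 0.09, adjusted p = 0.0324) were among the lower ones, and CX3CL1 (1.37 ± 0.17, adjusted p = 0.0023) and CCL2 (0.69 ± 0.11, adjusted p = 0.00495) among the higher ones. In all 4 lane comparisons 8 of the 33 were negative, against 21.3% of all genes, and 2, CX3CL1 and CCL2, were positive, against 21.7%.

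**Figure D3:**
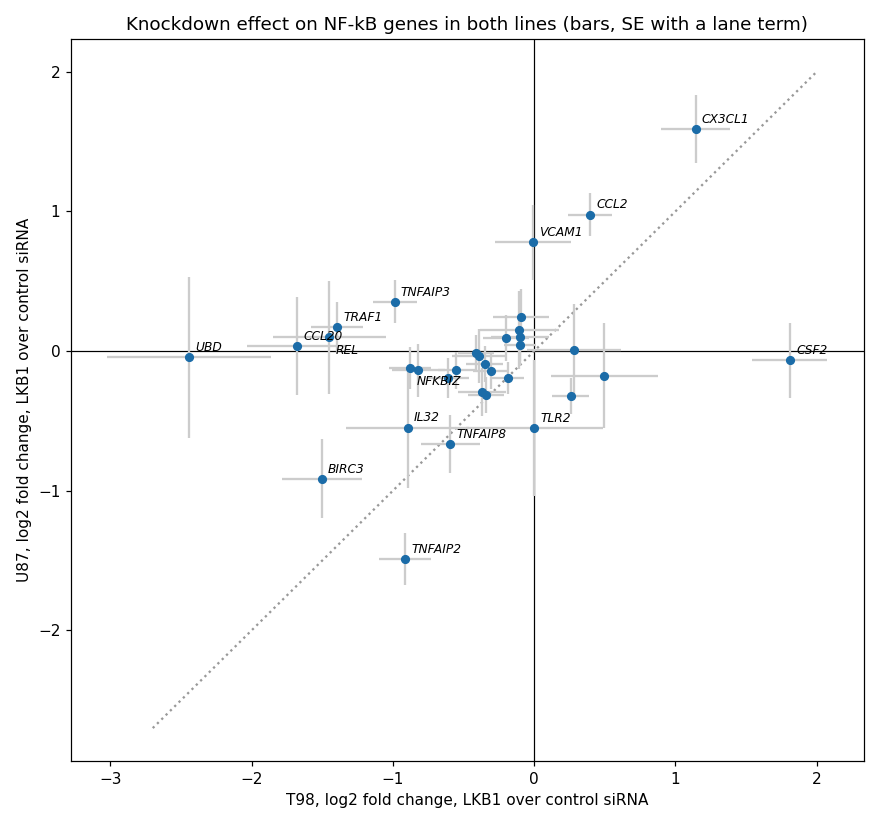
Log2 fold change, LKB1 over control siRNA, of the 33 tested NF-kB genes in T98 (x axis) and U87 (y axis), with bars of 1 SE from the fit with a lane term and a dotted line of equal effects. TNFAIP2 and BIRC3 lie low in both lines and CX3CL1 high in both, while UBD, CCL20, REL, TRAF1 and TNFAIP3 lie left of 0 in T98 and near or above 0 in U87. UBD had at most 1 read in any U87 library, so a fall there could not be seen.

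With control siRNA, T98 and U87 differed strongly in which NF-kB targets they expressed, while the subunits differed by less than 1 on the log2 scale. Without a lane term 19 of the 33 genes passed, against 37.7% of all genes, 7 higher in T98 (18.3%) and 12 lower (19.5%). With it, where the fit to all libraries estimates the difference at lane 2, 26 passed, against 63.3% of all genes, 10 higher (30.7%) and 16 lower (32.6%). The lines did not overlap for 9 genes higher in T98, against 35.7% of all genes, and for 18 lower ones, against 35.9%. A difference of at least 1 on the log2 scale in either direction was seen in 22 of the 33, against 39.6% of all genes. The control libraries also enter the knockdown comparisons, so the 2 sets of values are not independent. Of 7 microglia and macrophage markers, 4 were tested, of which 1 was higher and 2 were lower in T98. Their summed level was 833 to 1313 in T98 control libraries and 12404 to 20353 in U87 control libraries, most of it CD68, with AIF1 at 1.9 or less in every library. The part of such differences in the values of the NF-kB genes was not tested. The adhesion molecule VCAM1 and the chemokine CX3CL1 were near absent in U87, and the cytokine CSF3 and the receptors CD40 and TLR2 near absent in T98.

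VCAM1 had 1099 and 2857 in T98 control libraries and 4.22 and 3.81 in U87 control libraries (log2 difference 8.47 ± 0.60, adjusted p = 0.000103). CX3CL1, at 163 and 746 in T98 control libraries and 6.31 and 3.8 in U87 control libraries, and UBD, at 120.3 and 67.3 in T98 and 1.05 and 0 in U87, followed (5.89 ± 0.83, adjusted p = 0.00161, and 5.99 ± 0.86, adjusted p = 0.00181). UBD rested on 1 read in the U87 control libraries, and the scaled ratio of reads, T98 over U87, was 184 with an exact 95% interval of 32.6 to 7310 that covers counting error only. CSF3 stood furthest the other way, with 5.25 and 0 in T98 control libraries and 3739.7 and 14329 in U87 control libraries (−11.52 ± 1.18, adjusted p = 0.000383). It rested on 5 reads in the T98 control libraries: the difference was −9.22 in lane 2 and −13.81 between lanes 4 and 5, and the scaled ratio of reads, U87 over T98, was 3710 with an exact 95% interval of 1590 to 11400 that covers counting error only. CD40, the receptor of CD40 ligand, had 2.17 and 4.77 in T98 control libraries and 486 and 499 in U87 control libraries (−6.85 ± 0.49, adjusted p = 1e-04). TLR2, which senses bacterial lipoproteins, had no read in T98 control libraries and 32.9 and 76.5 in U87 control libraries, at least 37-fold lower in T98 against a floor of 3 reads over the group (adjusted p = 0.00273). CSF2 had 12.7 and 5.64 in T98 control libraries and 129 and 326 in U87 control libraries (−4.43 ± 0.75, adjusted p = 0.00361), and TNFAIP6 had 3.3 and 15.3 against 124 and 109.8 (−3.81 ± 0.72, adjusted p = 0.00586). For each of these 8 genes the T98 and U87 control libraries did not overlap. With the lane term, the fit estimates the difference at lane 2 from all libraries, not from the lane 2 control libraries alone. The log2 difference then moved by over 1.5 times as a fold for CSF3 (−9.33), TLR2 (−4.84), CSF2 (−3.18), TNFAIP6 (−4.54), CX3CL1 (4.64) and UBD (6.58), and all 6 still passed.

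The 11 other genes that passed without a lane term were lower or higher in T98 by smaller amounts. BIRC3 (2.15), CSF1 (1.96), CCL2 (1.90) and BIRC2 (1.13) were higher in T98 on the log2 scale. CCL20 (−3.47), NFKBIZ (−2.74), SOD2 (−2.42), TNFRSF9 (−2.37), IRAK2 (−1.72), TNFAIP3 (−1.44) and TNIP1 (−1.07) were lower in T98. With the lane term BIRC3 was 2.83 and CCL20 −2.73. Genes that passed only with the lane term were IL32 (2.89) and NFKBIE (0.865), higher in T98, and NOD2 (−3.195), ICAM1 (−1.46) and TNFAIP2 (−0.66), lower in T98. NFKBIA and NFKB1, given below, also passed only with it. Of the feedback regulators, NFKBIZ, TNFAIP3 and TNIP1 were thus lower in T98. NFKBIA had 1940.0 and 1505 in T98 control libraries and 3911 and 2449.5 in U87 control libraries, with no overlap. It just missed the threshold without a lane term (−0.86 ± 0.29, adjusted p = 0.0512) and passed with it (−0.94 ± 0.155, adjusted p = 0.00128). Without a lane term the 5 subunits had log2 differences of −0.17 to 0.84, and none passed. With it NFKB1 passed, higher in T98 (0.42 ± 0.15, adjusted p = 0.0403), although its T98 control values of 2764 and 1919.6 overlapped the U87 control values of 1997 and 1731. RELA differed least (0.02 ± 0.18 without a lane term), and NFKB2, at −0.17 without a lane term, was 0.42 with it (adjusted p = 0.0506).

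Per kilobase of transcript, which allows genes to be compared within a library group, CSF1 was the most abundant of the 37 genes in T98 control cells, at a mean of 4810 normalised reads per kilobase in T98 and 1260 in U87. SOD2 was the most abundant in U87 control cells, at 1490 in T98 and 8590 in U87, followed by CSF3 at 1.48 in T98 and 5100 in U87. TNIP1 had 2020 in T98 and 4220 in U87. RELA, at 1160 in T98 and 1150 in U87, and NFKBIA, at 1090 in T98 and 2020 in U87, were the most abundant of the subunit and IkB genes in both lines.

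**Figure D4:**
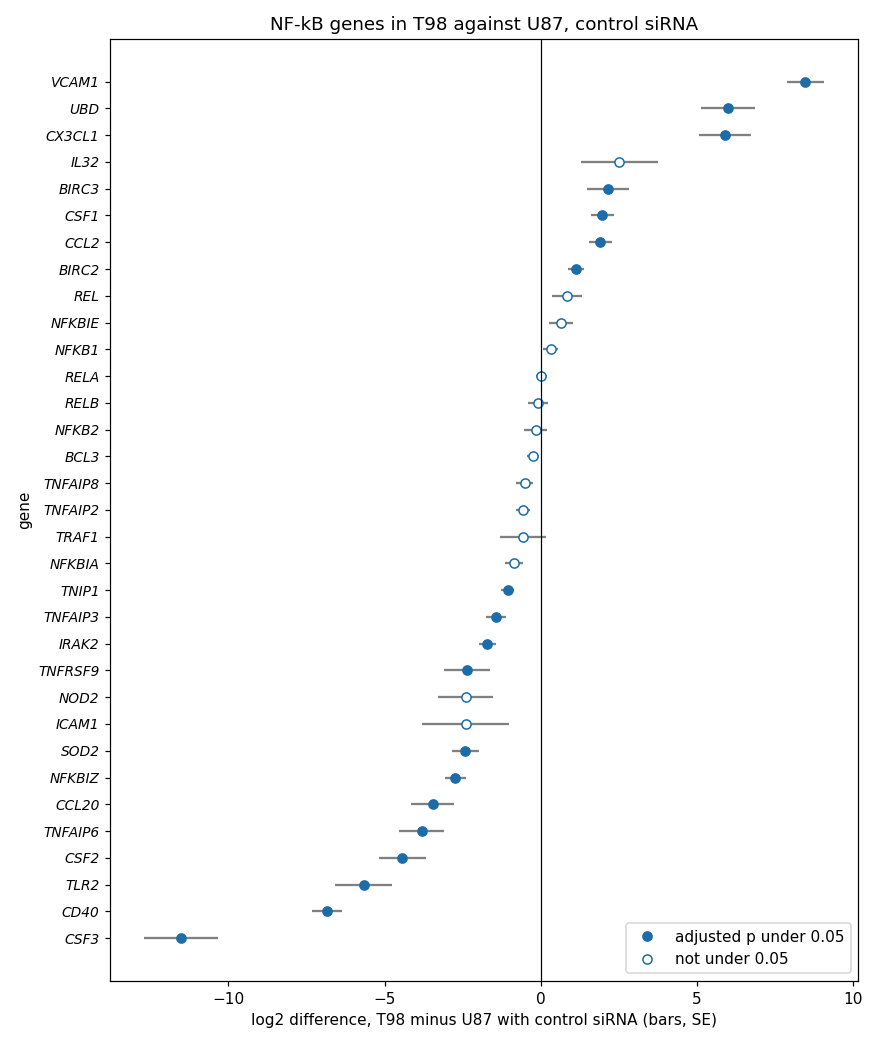
Log2 difference, T98 minus U87 with control siRNA, of the 33 tested NF-kB genes, with bars of 1 SE from the fit without a lane term and filled points where the adjusted p was under 0.05. The 5 subunits lie between −0.17 and 0.84, while VCAM1 lies at 8.47 and CSF3 at −11.52.

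The 4 genes that were not tested gave few reads. TNF, the cytokine that starts much of this response, had 0 and 0 reads in T98 LKB1 siRNA libraries and 1 and 1 in T98 control libraries, and 4 and 8 in U87 LKB1 siRNA libraries and 9 and 5 in U87 control libraries. LTB, which encodes lymphotoxin-beta, and CCL7 did not pass 4 reads in any library. CCL5, a chemokine of T cells, lay between 2.77 and 14.3 normalised reads over all 8 libraries. With no filter on low values, and without a lane term, none of the 4 passed in a knockdown comparison (adjusted p of 0.677 or more in T98 and 0.975 or more in U87, over 18031 genes). TNF passed for T98 against U87 controls, with 1 and 1 reads in T98 against 9 and 5 in U87 (−1.95 ± 0.55, adjusted p = 0.0311).

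Of a list of 44 further genes of the pathway, upstream receptors, adaptors, IKK and related kinases, ubiquitin-editing enzymes and other inhibitors, 43 were tested. In T98 9 of the 43 passed with a lane term, against the same 15.8% of all genes, 8 lower (7.33%) and 1 higher (8.48%). In U87 3 passed, against 11.2%, 2 lower (5.91%) and 1 higher (5.29%). Without the lane term 0 of the 43 passed in either line, against 0.028% of all genes in T98 and 0.056% in U87. In that fit 7 had an unadjusted p under 0.05 in T98, against 10.5% of all genes, and 3 in U87, against 8.88%. IL1RAP, the co-receptor of the interleukin-1 receptor, fell in both lines once lane was in the model, by 1.30 (SE 0.17, adjusted p = 0.00681) in T98 and by 1.21 (SE 0.17, adjusted p = 0.00557) in U87 on the log2 scale. BTRC, the F-box protein that recognises marked IkB proteins, rose in both with a lane term, with log2 fold changes of 0.98 (SE 0.15, adjusted p = 0.0101) in T98 and 1.02 (SE 0.15, adjusted p = 0.00682) in U87. Both also passed for the mean of the lines without a lane term (IL1RAP −1.26, adjusted p = 0.0177, BTRC 1.00, adjusted p = 0.0305). In T98 the receptor TLR6 (−1.45, adjusted p = 0.00595), the A20 partner TNIP3 (−2.34, adjusted p = 0.0123) and TAB3, an adaptor of the kinase TAK1 (−1.63, adjusted p = 0.0134), fell with a lane term. MAP3K14, the kinase NIK that starts the non-canonical pathway, fell with a lane term in both T98 (−0.63, adjusted p = 0.045) and U87 (−0.82, adjusted p = 0.0226). The core IKK subunits CHUK, IKBKB and IKBKG did not pass in either line.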

How the data were processed

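RNA-seq libraries (TruSeq RNA kit V2, which does not mark strand, per the labels' protocols) were aligned with TopHat2 2.0.8b to hg19, per the submitters' processing notes; no read counter is named there. The authors deposited 1 table of normalised signal values, made with edgeR per the submitters' processing notes; the values invert as its pseudo-counts at a common library size. The values are not counts, so no count test was run; whole reads were recovered by inverting that scaling (100% whole within 0.05 read) and used for depth, low genes and a TMM-scaled alternative. Of 18815 transcripts, 18787 symbols were kept by highest mean. Limma 3.58.1 (trend) in R 4.3.3 was run on log2(value + 1) over genes with a value of 10 in 2 libraries: 4 group means, 4 residual degrees of freedom, two-sided, Benjamini-Hochberg over 14282 genes. A lane coefficient per line left 2; column headers pair libraries by lane, and replicate numbers are accession order. Named genes passed 0.05 in either fit or had the largest baseline differences. Reads shared with overlapping or antisense genes cannot be told apart. Members and lists were chosen with earlier results of these data known. Scripts were tested on simulated data.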

Additional observations from a re-analysis of the deposited data

Results flagged for a closer look

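The knockdown differences of BCL3, RELA and TNFAIP3 had opposite signs in the 2 lines in every lane, as did those of 11.5% of all genes. Of these only TNFAIP3 in T98 passed the test within a line, and RELA lay within its SE of 0 in both. The knockdown effect in T98 minus that in U87 was −1.34 (SE 0.22) on the log2 scale for TNFAIP3, 0.58 (SE 0.19) for BCL3 and −0.14 (SE 0.16) for RELA. Limma's test of this difference with a lane term gave adjusted p-values of 0.0616 for TNFAIP3, 0.229 for BCL3 and 0.692 for RELA, and without it 1 for all 3. BCL3 was higher in the T98 lanes by 0.41 and 0.11 and lower in the U87 lanes, at −0.31 and −0.33. RELA stood at −0.12 and −0.08 in T98 and at 0.03 and 0.05 in U87.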

How the results depend on the processing

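The knockdown counts depended on the lane term. With libraries paired by lane (a replicate block by lane), the NF-kB genes called went to 13 in T98 and 3 in U87, against 0 each without it, to 13 for the mean of the lines, against 1, and stayed at 0 for the difference; for T98 against U87 controls they were 26 against 19. Over all genes the counts with the lane term and without it were 2258 and 4 in T98, 1599 and 8 in U87, 3765 and 265 for the mean, 68 and 0 for the difference, and 9037 and 5386 for the controls. With 1 library left out and the lane term kept, counts ran from 0 to 12 in T98 (11 without the control library of lane 4), 0 to 5 in U87 (4 or 5 without a T98 library), 0 to 15 for the mean (6 without a T98 library of lane 2), 0 to 3 for the difference and 17 (without the U87 control library of lane 2) to 28 for the controls. Without the lane term they stayed at 0 in T98 and U87, ran from 0 to 1 for the mean and from 16 to 21 for the controls. A lone library left in a group was assumed to vary like the other groups. With the lane term, knockdown calls over all genes were also lost without a U87 library, so those losses were not particular to the NF-kB genes. Calls over all genes also rose in T98 without a T98 library of lane 4, and in U87 without a T98 library. NFKB2 in T98 against U87 controls turned to 0.49 with the lane term when T98 control replicate 2 or either T98 LKB1 siRNA library was left out. It was −0.17 without a lane term and with all libraries kept. The lane term estimates that difference at lane 2 from the libraries kept. Without the lane term, a pseudocount of 5, other filters, TMM scaling and fits on the comparison's own libraries moved no count of NF-kB genes by over 1.5 times. The T98 and U87 knockdown counts were 0 in all of these fits. None of these settings was run with the lane term, so whether the calls made with it depend on them was not tested. The planned edgeR and DESeq2 fits were not run, since the deposited values are not counts. Totals of 25234334 to 38031734 reads leave genes of a few reads, such as CCL20 in T98, imprecise.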
